A study of Mus musculus with 3 samples.

Results

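Tryptophan is broken down along the kynurenine pathway, and 7 genes of that pathway and of tryptophan use in translation were followed here: Ido1, Ido2 and Tdo2 for the first step, Afmid for the next, Kmo and Kynu for the steps beyond kynurenine, and Wars for the loading of tryptophan onto its tRNA. They were chosen by symbol and are 7 of 24402 gene symbols in the deposited tables. Together they have 15 transcripts in each table, 12 from RefSeq and 3 assembled from the reads, and the level of a gene is the sum of its transcripts in FPKM, that is, fragments normalised to transcript length and library depth. The number of fragments behind a level was taken from its aligned bases at 300 bases per read pair.

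RNA was measured in cancer stem cell spheroids (CSCsp) of 4T1, a mouse breast cancer line derived from the Balb/c strain, in 3 libraries with 1 library per condition. In R, the CSCsp had been cultured with splenocytes given reinforced activation, that is, beads carrying antibodies to CD3 and CD28 together with IL2. In P, they had been cultured with splenocytes primed by the tumor alone and kept in buffered saline, and in N they had no co-culture. All splenocytes came from Balb/c mice injected at 8 weeks of age with 4T1 cells and bearing tumors for 28 days, and all CSCsp were grown without attachment for 7 days and collected on a 40 µm strainer. By the study's methods the CSCsp were strained and washed free of single splenocytes, and RNA of its independent experiments was multiplexed in equal amounts. The tables hold no replicates, and no p-value or SD can be given for any difference. Intervals in parentheses are exact intervals at 95% on the fragment counts, and they cover counting error only. A ratio of R over N is written R/N, and likewise R/P and P/N.

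Conditions were taken from the labels, but the assignment of P and N is uncertain. The library labelled N was deposited under a name that refers to the saline in which primed splenocytes were held, and the library labelled P under a name that refers to no treatment. The libraries are called R, P and N by their labels, and every direction between P and N, or of R against only one of them, rests on those labels. Depth was 19178982 fragments in R, 17887652 in P and 17894139 in N. The 5 epithelial markers were all above 1 FPKM in every library, with Epcam at 245.1 FPKM in R, 242.5 FPKM in P and 285.1 FPKM in N. They were not all level, and Krt14 was past 2-fold lower in R, at 14.0 FPKM against 31.3 FPKM in P and 32.3 FPKM in N, with a median log2 ratio of the 5 markers of -0.48 for R/N. Of 43 leukocyte marker genes, 14 reached 1 FPKM in R, 4 in P and 11 in N, while 7 were listed at 0 in R, 23 in P and 9 in N. The 5 markers shared by leukocytes (Ptprc, Cd53, Laptm5, Coro1a and Cd52) summed to 4.91 FPKM in R, 0.347 FPKM in P and 5.69 FPKM in N. They were thus lower in P, labelled as a co-culture, than in N, labelled as having none. Whether the labels of P and N are exchanged was not tested.

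In the kynurenine pathway, indoleamine 2,3-dioxygenase (the products of Ido1 and Ido2) or tryptophan 2,3-dioxygenase (Tdo2) opens the indole ring of tryptophan. Arylformamidase (Afmid) then releases kynurenine, which kynurenine monooxygenase (Kmo) and kynureninase (Kynu) take toward NAD. In tumors the pathway is known for drawing tryptophan away from T cells and for kynurenine, a ligand of the aryl hydrocarbon receptor. Ido1 and the cytosolic tryptophanyl-tRNA synthetase Wars are well known targets of interferon gamma, while Tdo2 is best known from liver.

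Ido1 and Ido2 lie next to each other on the minus strand of chromosome 8, Ido1 at chr8:24584133-24596960 and Ido2 at chr8:24531892-24576333 (GRCm38). Their RefSeq transcripts have 10 exons each, and exons 2 to 9 have the same length in both genes. Coding exons 2, 3 and 5 are shown because they differed in coverage: in R, exon 2 had a depth above 0 in Ido1 only, exon 3 in both genes and exon 5 in neither. Over these 8 exons 423 of 769 bases were identical (55.0%, from 38.1% to 71.2% by exon), and the longest run of identical bases at matched positions was 15 bases. Exon 2 is at chr8:24593333-24593428 in Ido1 and chr8:24558148-24558243 in Ido2, exon 3 at chr8:24593093-24593212 and chr8:24553721-24553840, and exon 5 at chr8:24589578-24589592 and chr8:24548820-24548834. They are printed 5′ to 3′ on the minus strand from GENCODE transcripts, with bases that differ between the genes in capitals.
Ido1 exon 2: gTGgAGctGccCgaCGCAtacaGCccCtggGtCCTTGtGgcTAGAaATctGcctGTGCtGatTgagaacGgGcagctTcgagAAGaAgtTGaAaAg
Ido2 exon 2: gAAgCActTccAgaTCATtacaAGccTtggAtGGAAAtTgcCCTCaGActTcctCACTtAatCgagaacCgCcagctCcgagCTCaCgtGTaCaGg
Ido1 exon 3: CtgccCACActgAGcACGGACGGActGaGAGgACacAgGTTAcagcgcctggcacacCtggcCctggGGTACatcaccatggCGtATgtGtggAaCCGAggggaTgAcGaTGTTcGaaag
Ido2 exon 3: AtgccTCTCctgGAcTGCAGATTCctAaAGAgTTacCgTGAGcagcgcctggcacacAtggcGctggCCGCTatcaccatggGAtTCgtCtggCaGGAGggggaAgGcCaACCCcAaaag
Ido1 exon 5: GccCAtgACaTAcGA
Ido2 exon 5: AccGTtgGAaATcAG

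Ido1, the inducible dioxygenase, had 1.39 FPKM in R (1.01 to 1.89, 42 fragments), against 0.0322 FPKM in P (1 fragment) and 0.0744 FPKM in N (2 fragments). R was thus the only library with an Ido1 level above 1 FPKM, and the intervals of P and N reached no higher than 0.188 and 0.243 FPKM. The R/N ratio was 18.7 (4.86 to 159.2) and the R/P ratio 43.1 (7.33 to 1743.1). With so few fragments in P and N these ratios are loosely bounded above, and no ratio was taken between P and N. In bulk RNA of this kind, fewer cells of a type and less RNA per cell cannot be told apart.

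Ido2, the paralog of Ido1, had 2.98 FPKM in R (2.50 to 3.53, 133 fragments), 0.374 FPKM in P (0.183 to 0.702, 10 fragments) and 0.786 FPKM in N (0.514 to 1.12, 28 fragments). R was above both other libraries with intervals that did not overlap, and the intervals of P and N did overlap. The ratio was 3.79 for R/N (2.51 to 5.92), 7.97 for R/P (4.20 to 17.0) and 0.476 for P/N (0.206 to 1.01). Ido2 had the higher summed level of the pair in every library, but in P the intervals of Ido1 and Ido2 overlapped. In R, where both genes had enough fragments for a comparison, the level of Ido2 was 2.14 times that of Ido1. That multiple depends on how reads were divided among transcripts. A short assembled Ido2 transcript of 662 bases gave 0.870 of the 2.98 FPKM in R from 11 fragments, and the RefSeq transcript gave 2.11 FPKM. In P the short transcript gave 0.246 of 0.374 FPKM from 3 fragments.

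**Figure D1:**
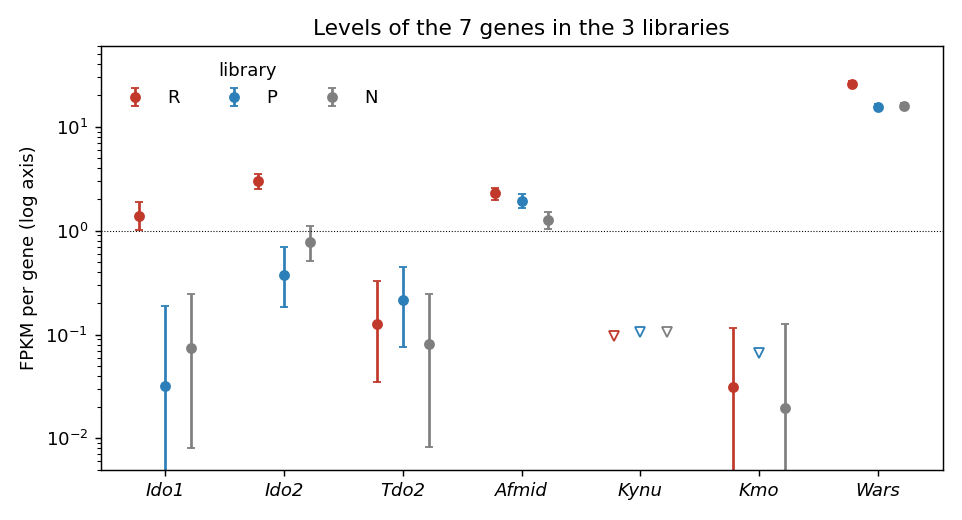
FPKM of the 7 genes on a log axis in R (left, red), P (middle, blue) and N (right, grey), with exact 95% Poisson intervals, some cut by the lower edge. Open triangles mark the level of 3 fragments where a gene was listed at 0, and the dotted line is 1 FPKM. Ido1 and Ido2 pass the line only in R, Afmid and Wars in all 3 libraries.

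The reads of Ido1 and Ido2 were spread differently over their exons. In R, the first exon of the Ido1 transcript NM_008324, at chr8:24596841-24596960, had a mean depth of 12.46 reads, and the summed depth of the exons after it ran from 6.33 to 15.37, apart from exon 5. The other RefSeq transcript, NM_001293690, differs in its first exon at chr8:24595402-24595666, which had a depth of 0 in all 3 libraries. The share of the Ido1 level that the deposited tables give to it, 0.531 of 1.39 FPKM in R, thus came from exons that both transcripts share. In P and N, where the tables give all Ido1 fragments to NM_001293690, no exon had a summed depth above 1.48.

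In Ido2, exons 1 and 2 of the RefSeq transcript NM_145949 had a depth of 0 in R, while exons 3, 4 and 6 to 10 had summed depths of 10.94 to 27.19. A depth of 0 allows up to 3 fragments. Exon 1 was at 0 in P and N too, and exon 2 had a depth of 1.00 in P and 0 in N. The assembled Ido2 transcript starts instead at chr8:24554241-24554664, between RefSeq exons 2 and 3, and this first exon had a depth of 6.23 in R, 1.90 in P and 2.23 in N. GENCODE has 2 Ido2 transcripts, Ido2-202 and Ido2-204, whose first exon overlaps it and ends at the same 3′ base, 24554241, while their start sites, 24554554 and 24554597, differ from that of the assembled transcript. Both are of type processed transcript, that is, with no annotated coding sequence. The assembled transcript ends after 3 exons, and most fragments were given to the RefSeq transcript, 122 in R, 7 in P and 25 in N. The RefSeq transcript alone had a ratio of 4.63 for R/N (2.99 to 7.44) and 16.5 for R/P (7.78 to 42.0), and was lower in P than in N with a ratio of 0.280 (0.102 to 0.667). Exon 5, the exon of 15 bases printed above, had a depth of 0 in both genes and all 3 libraries. What lies behind this depth of 0 was not tested.

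**Figure D2:**
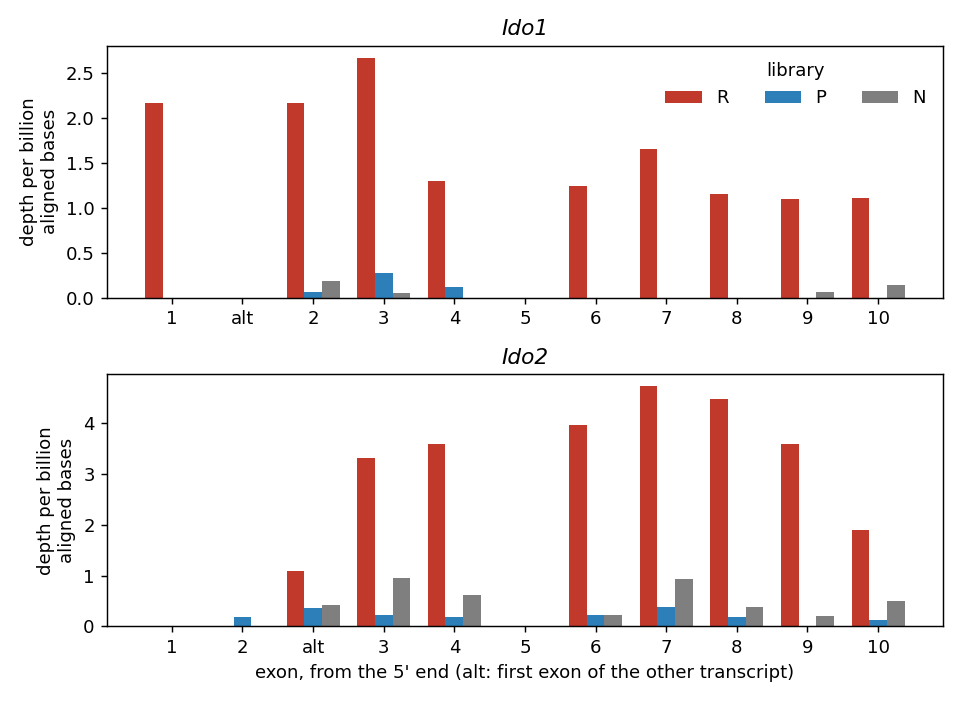
Depth per exon of Ido1 (top) and Ido2 (bottom), summed over the transcripts of each gene and scaled to the library's aligned bases, in R (red), P (blue) and N (grey). Exons run from the 5′ end, and alt is the first exon of the other transcript. In R, Ido1 is covered from exon 1 on, whereas Ido2 has a depth of 0 in exons 1 and 2 and is covered from the inner first exon onward. Exon 5 has a depth of 0 in both.

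Tdo2 (chr3:81958414-81975728, minus strand) stayed far below 1 FPKM, at 0.125 FPKM in R (4 fragments), 0.213 FPKM in P (6 fragments) and 0.0812 FPKM in N (2 fragments). The 3 intervals overlapped, and the R/N ratio was 1.54 (0.221 to 17.0). None of its first 7 exons had a read in any library, and all depth lay in exons 8 to 12. A difference in Tdo2 was therefore not detectable at this depth.

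Afmid (chr11:117825919-117842358, plus strand) was the only enzyme of the breakdown route among the 7 genes to exceed 1 FPKM in every library. It had 2.28 FPKM in R (1.99 to 2.60, 222 fragments), 1.93 FPKM in P (1.66 to 2.23, 185 fragments) and 1.26 FPKM in N (1.04 to 1.51, 120 fragments). R and P overlapped, with a ratio of 1.18 (0.969 to 1.45), and N lay below both. The ratio was 1.81 for R/N (1.45 to 2.29) and 1.53 for P/N (1.21 to 1.95). The lower level in N depended on how transcripts were assigned. In N a further assembled transcript joins the first exons of the neighbour Syngr2 to Afmid exons, with 0.723 FPKM and 64 fragments, and it was at 0 in R and P. When that transcript was counted with Afmid, an alternative chosen after seeing the data, N had 1.98 FPKM and the R/N ratio was 1.15 (0.943 to 1.41) and the P/N ratio 0.973 (0.789 to 1.20).

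The RefSeq transcript of Afmid, NM_027827, behaved unlike the sum. It had 1.44 FPKM in R, 0.535 FPKM in P and 0.304 FPKM in N, which made up 63.0%, 27.8% and 24.2% of the gene in these libraries. Its ratio was 4.73 for R/N (3.09 to 7.50) and 2.69 for R/P (1.91 to 3.84). An assembled transcript that starts further downstream had 0.809 FPKM in R, 1.24 FPKM in P and 0.605 FPKM in N, so that P was highest there. The division of reads among overlapping transcripts is an estimate, and its error is not part of the intervals. The 5′ part of Afmid also overlaps Tk1 on the opposite strand (chr11:117815519-117832422), which had 20.6 FPKM in R, 19.6 FPKM in P and 19.5 FPKM in N. Whether the libraries kept strand is not given in the sources used here, and a part of Tk1 reads in the Afmid values was not tested.

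**Figure D3:**
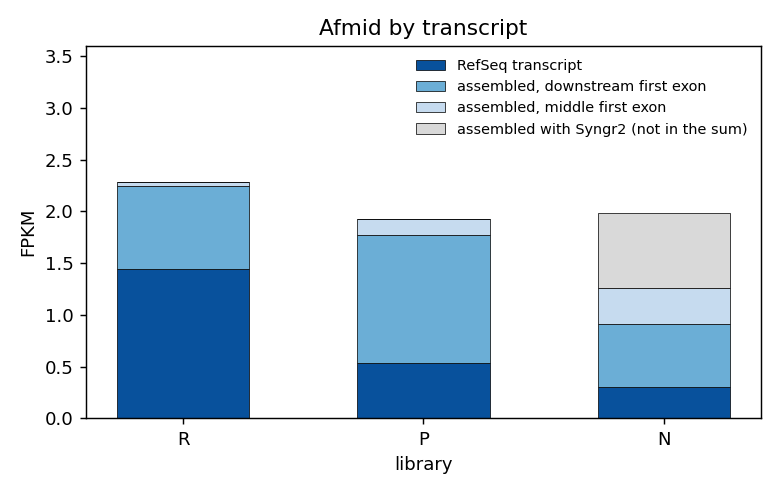
FPKM of Afmid in R, P and N, stacked by transcript: the RefSeq transcript, 2 assembled Afmid transcripts, and in grey the assembled transcript that joins Syngr2 and Afmid, which is not part of the gene's sum. The RefSeq transcript is the largest part in R (1.44 FPKM), and the joined transcript appears in N only (0.723 FPKM).

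Kynu and Kmo were at or near 0. Kynu (chr2:43555325-43683048, plus strand) was listed at 0 in all 3 libraries for each of its 3 RefSeq transcripts. On its shortest transcript 3 fragments would be 0.0975 FPKM in R and 0.105 FPKM in P and N. The exact intervals reached 0.120 FPKM in R and 0.129 FPKM in P and N. Kmo (chr1:175632193-175660853, plus strand) had 1 fragment in R (0.0310 FPKM), none in P and 1 in N (0.0198 FPKM). No ratio was taken for either gene.

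Wars (chr12:108860030-108894174, minus strand) was by far the most abundant of the 7 genes. It had 26.0 FPKM in R (24.6 to 27.3, 1400 fragments), 15.6 FPKM in P (14.5 to 16.7, 789 fragments) and 15.8 FPKM in N (14.8 to 17.0, 802 fragments). P and N overlapped, with a ratio of 0.986 (0.892 to 1.09), and R lay above both. The ratio was 1.64 for R/N (1.50 to 1.79) and 1.66 for R/P (1.52 to 1.82), so Wars was higher in R but under 2-fold. Nearly all of its level was given to NM_001164314, with 24.9 FPKM in R, 15.2 FPKM in P and 15.8 FPKM in N. This transcript starts at the upstream first exon, chr12:108894069-108894174, whose depth was 39.0 in R, 31.13 in P and 29.75 in N. The first exon shared by the other RefSeq transcripts, chr12:108893160-108893211, had a depth of 2.33 in R, 1.00 in P and 0 in N. Every one of the 10 exons of NM_001164314 was deeper in R per aligned base, by a ratio over N of 1.22 in the first exon and of 1.50 to 1.82 in the others.

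Set against the other cytosolic aminoacyl-tRNA synthetase genes, Wars stood near the upper end of a group that was mostly higher in R. These enzymes load amino acids onto tRNAs for translation, and all 19 of the others were above 1 FPKM. For R/N, 17 of the 19 had a log2 ratio above 0, with a median of 0.36 and a range of -0.12 (Hars) to 0.73 (Tars), and Wars at 0.71 was number 2 of 20. For R/P, 18 of the 19 were above 0, with a median of 0.28 and a highest value of 0.76 (Kars), and Wars at 0.73 was again number 2 of 20. For P/N the others ran from -0.24 to 0.45 and Wars was at -0.02. None of the 19 was past 2-fold in any comparison, where 3.20% of all genes counted were higher and 1.99% lower for R/N. For R/P these shares were 4.31% and 1.85%, and for P/N 0.669% and 1.73%. The median over all genes counted was 0.08 for R/N and 0.03 for R/P. By level, Wars was number 12 of 20 in R, 17 in P and 16 in N. Wars2, which encodes the mitochondrial tryptophanyl-tRNA synthetase, had 2.06 FPKM in R, 1.91 FPKM in P and 2.09 FPKM in N, with an R/N ratio of 0.987 (0.793 to 1.23).

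**Figure D4:**
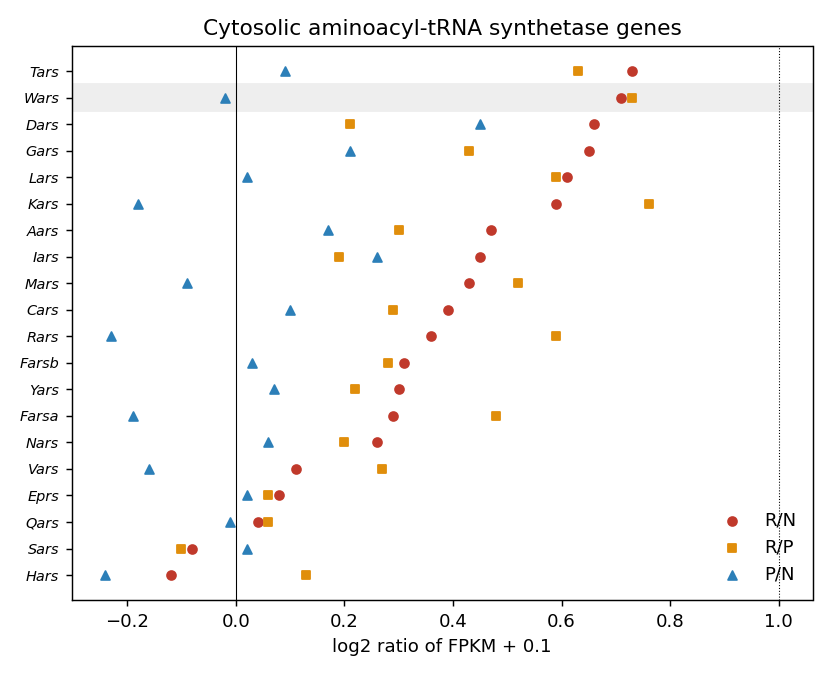
Log2 ratio of FPKM + 0.1 for Wars (shaded) and the 19 other cytosolic aminoacyl-tRNA synthetase genes, sorted by R/N (circles), with R/P (squares) and P/N (triangles). The dotted line is 2-fold. Wars is second to Tars for R/N (0.71 against 0.73) and near 0 for P/N.

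The genes whose pattern was nearest to that of Wars, by the distance between their log2 ratios of P/N and R/N among 7776 genes with at least 5 FPKM in a library, were Htra2, Trim11, Psma4 and Gnptab. Htra2, a mitochondrial serine protease, had 37.7 FPKM in R, 23.1 FPKM in P and 23.3 FPKM in N. Psma4, a subunit of the proteasome core, had 66.1 FPKM in R, 39.8 FPKM in P and 40.8 FPKM in N. Trim11 is an E3 ubiquitin ligase and Gnptab part of the enzyme that tags lysosomal proteins. All 4 lay within a distance of 0.0266, and each pattern rests on the same 3 libraries.

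A gene was counted as apart at a 2-fold ratio of FPKM + 0.1 where either library had at least 1 FPKM. For R/N, 4 of the 7 were counted, and Ido1 and Ido2 were higher with log2 ratios of 3.09 and 1.80. None was lower, where 3.20% of 11131 genes were higher and 1.99% lower. For R/P the same 4 were counted, and Ido1 and Ido2 were higher with log2 ratios of 3.49 and 2.70. None was lower, where 4.31% of 11144 genes were higher and 1.85% lower. For P/N only 2 of the 7 were counted, Afmid and Wars. Neither was apart, where 0.669% of 11065 genes were higher and 1.73% lower. Ido1 and Ido2 reached 1 FPKM only in R, so they passed the filter only through R, and these counts are a description. Afmid and Wars were counted in every comparison and were under 2-fold in each.

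Of the further genes listed for the kynurenine branches and the arm toward NAD, 12 were present and 7 reached 1 FPKM in R or N. For R/N 1 was higher and none lower (median log2 ratio 0.15), beside 3.20% higher and 1.99% lower over all genes counted. For R/P none was higher or lower, beside 4.31% higher and 1.85% lower over all genes counted. The gene higher for R/N was Ccbl2, a kynurenine aminotransferase, just past 2-fold at a ratio of 2.17 (1.32 to 3.66). Its R/P ratio was similar at 2.07 (1.27 to 3.46), and it was not counted there because its log2 ratio with the pseudocount was 0.94. It had 1.30 FPKM in R (57 fragments), 0.626 FPKM in P (25 fragments) and 0.598 FPKM in N (24 fragments). Ccbl2 reached 1 FPKM only in R, so it could be counted only as higher. Got2, the mitochondrial aspartate aminotransferase, was the most abundant with 69.5 FPKM in R, 54.6 FPKM in P and 57.2 FPKM in N. Haao, Acmsd, Qprt and Il4i1 had at most 5 fragments in a library and Aadat none. The NAD-forming enzymes Nmnat1, Nmnat2, Nmnat3 and Nadsyn1 had log2 ratios of -0.10 to 0.15 for R/N.

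Of 7 genes of the serotonin arm, the other use of tryptophan, only Maoa (monoamine oxidase A) reached 1 FPKM, with 3.07 FPKM in R, 3.53 FPKM in P and 3.29 FPKM in N. Tph1, a tryptophan hydroxylase, was under that level with 6 fragments in R, 1 in P and 3 in N. No ratio is given, because its level sums 3 transcripts and the ratio of levels depended on how these few fragments were divided.

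Of 8 transporters of tryptophan or kynurenine, 5 reached 1 FPKM and none was past 2-fold in any comparison. The shares over all genes counted were 3.20% higher and 1.99% lower for R/N, and 4.31% and 1.85% for R/P. For P/N they were 0.669% and 1.73%. At shares of that size, 0 of 5 says little about these genes. Slc7a5, the light chain of the main tryptophan carrier, had 32.3 FPKM in R, 35.2 FPKM in P and 30.7 FPKM in N, and its partner Slc3a2 had 68.6 FPKM in R, 71.0 FPKM in P and 71.9 FPKM in N. Slc6a19, a carrier of neutral amino acids that did not reach 1 FPKM, had 12 fragments in R, 0 in P and 2 in N, with an R/N ratio of 7.46 (1.66 to 68.6). Slc7a11, the cystine carrier, was higher in R by a ratio of 1.38 over N (1.20 to 1.57). Of 9 genes of the aryl hydrocarbon receptor and the kynurenic acid receptor Gpr35, 5 reached 1 FPKM and none was past 2-fold, beside the same shares. Their median log2 ratio was -0.31 for R/N. Ahr itself had 12.8 FPKM in R, 13.9 FPKM in P and 17.9 FPKM in N. Its textbook targets were divided, with Nqo1 at a ratio of 1.79 for R/N (1.44 to 2.24), Cyp1b1 at 1.27 (1.18 to 1.38), Tiparp at 0.807 (0.745 to 0.874), and Cyp1a1 at no more than 3 fragments in any library.

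The kinase GCN2, encoded by Eif2ak4, senses uncharged tRNA and acts through Atf4. Of the 7 genes of this arm all reached 1 FPKM and only Asns, asparagine synthetase, was past 2-fold, at 12.4 FPKM in R, 6.42 FPKM in P and 4.20 FPKM in N and an R/N ratio of 2.94 (2.43 to 3.57). For R/P its ratio was 1.93 (1.64 to 2.27). Among all genes counted, 3.20% were higher and 1.99% lower for R/N. Atf4 had 64.8 FPKM in R, 69.0 FPKM in P and 71.6 FPKM in N, and Trib3 had 13.2 FPKM in R, 13.5 FPKM in P and 13.3 FPKM in N. Ddit3, which encodes CHOP, was lower in R, at 33.1 FPKM against 58.8 FPKM in P and 45.3 FPKM in N. The genes of this arm thus did not move together, and their median log2 ratio for R/N was -0.01.

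**Figure D5:**
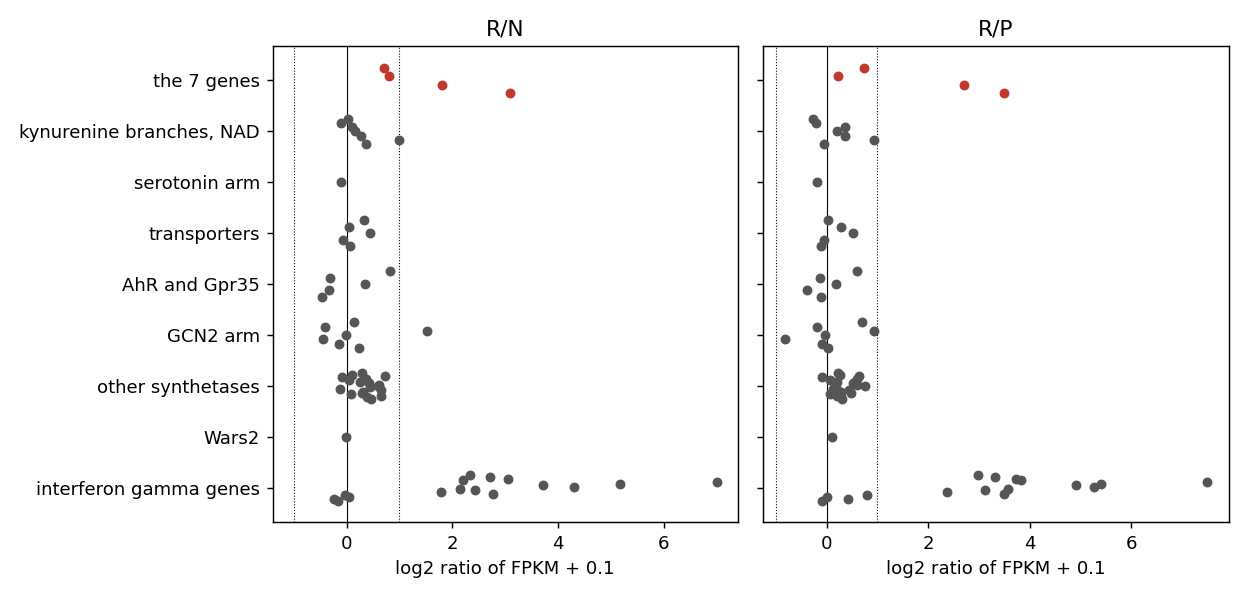
Log2 ratio of FPKM + 0.1 for R/N (left) and R/P (right), 1 point per gene with at least 1 FPKM in either library compared, for those of the 7 genes that qualify (red) and for 8 lists of related genes (grey). Dotted lines are 2-fold. Ido1 and Ido2 are at 3.09 and 1.80 for R/N. The interferon gamma genes run from -0.23 to 7.0 for R/N, a range that also holds Afmid and Wars. The other lists stay mostly within 2-fold.

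Genes of interferon gamma signalling and its common targets were higher in R in the largest number among the 8 lists. Of 17 genes 16 were counted for R/N, 12 were higher and none lower, with a median log2 ratio of 2.38, and for R/P 12 were higher with a median of 3.41, beside 0.08 and 0.03 over all genes counted. Ciita and Cxcl9 reached 1 FPKM only in R, so these 2 could be counted only as higher. Irf1, a transcription factor induced by interferon gamma, had 275.0 FPKM in R, 53.4 FPKM in P and 79.4 FPKM in N. Cxcl9, a chemokine for T cells, had 34.9 FPKM in R, 0.0939 FPKM in P and 0.174 FPKM in N. The receptor chains Ifngr1 and Ifngr2 and the kinases Jak1 and Jak2 were not past 2-fold. Ifng was listed at 0 in all libraries, with intervals up to 0.159 FPKM in R and 0.171 FPKM in P and N. For P/N, 14 were counted, none was higher and 3 were lower (Socs1, Gbp3 and Cxcl10), with a median of -0.69. Among all genes counted for P/N, 0.669% were higher and 1.73% lower. All 12 genes that were higher in R had their lowest level in P, as had Ido1 and Ido2, though the intervals of P and N overlapped for Ido1, Ido2, Ciita and Cxcl9.

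Dendritic cells and macrophages are other known sources of Ido1, and their markers were read in the same libraries. Of 8 dendritic cell markers, 2 reached 1 FPKM in every library (Fscn1 and Zbtb46), with summed levels of 116.0 FPKM in R, 124.5 FPKM in P and 133.2 FPKM in N, most of it from Fscn1. Clec9a and Siglech were at 0 in all 3 libraries, Flt3 had at most 1 fragment and Xcr1 at most 2. Itgax had 3 fragments in R, 1 in P and 46 in N (0.641 FPKM), and Ccr7 had 16 fragments in R, 12 in P and 25 in N. Of 8 macrophage and monocyte markers, 3 reached 1 FPKM in R, 1 in P and 2 in N, with sums of 50.8 FPKM in R, 18.9 FPKM in P and 52.0 FPKM in N. Cd68 made up much of these sums, with 19.2 FPKM in R, 18.0 FPKM in P and 21.4 FPKM in N. The markers moved unevenly, with Mpeg1 at 24.5 FPKM in R, 0.227 FPKM in P and 0.697 FPKM in N, and Lyz2 at 6.51 FPKM in R, 0.313 FPKM in P and 28.9 FPKM in N. Csf1r had 0.442 FPKM in R, 0.148 FPKM in P and 0.761 FPKM in N. Adgre1 had 2 fragments in each library. Of 9 T and NK cell markers in the tables, only Gzmb reached 1 FPKM, at 1.58 FPKM in R, 0 in P and 0.275 FPKM in N. The part of such cells in the Ido1 and Ido2 levels was not tested.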

How the data were processed

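The 3 CSCsp libraries, 1 for each condition, were grouped by their labels. The authors' pipeline was HISAT2 2.2.0 for alignment and StringTie for quantification (2.1.3 in the submitters' notes and 2.1.5 in the files). As deposited, values are coverage, FPKM and TPM per transcript and coverage per exon. The notes name mm9 as the build, but 99.33% of 23188 gene symbols overlap their GRCm38.p6 position, and coordinates are given as in the files.

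Transcripts were assigned to genes by symbol, and assembled ones by exon overlap within their StringTie locus. The 683 assembled transcripts that overlap several genes and the 3168 that overlap none were left out. Fragments are aligned bases divided by 300, the most common value per read pair. Levels carry exact Poisson intervals and ratios exact Clopper-Pearson intervals (95%, SciPy 1.17.1, Python 3.11.15). Both were scaled from fragments to FPKM, so the division of reads among transcripts of a gene is not part of them. Log2 ratios use a pseudocount of 0.1 FPKM, which understates ratios of low genes, and genes were counted as apart at 2-fold with at least 1 FPKM in either library. The calculations were tested on simulated fragments of genes with a mean of at least 1 FPKM over the 2 libraries compared. That test did not cover lower genes, Ido1 among them, or the division of reads among transcripts. With no replicates no test between conditions was run, and leaving out a replicate or pairing was not possible.

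The 7 genes, the gene and marker lists and the alternatives were chosen with earlier results of these data known. Named genes are the 7, members of the lists, and the 4 genes nearest to each of the 7 with at least 5 FPKM, without predicted genes. Values of some listed genes are not reported here. Exon sequences are from GENCODE vM21 transcripts of GRCm38.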

Additional observations from a re-analysis of the deposited data

How the results depend on the processing

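With 1 library per condition, no alternative can show the spread between experiments, and all P and N directions depend on labels that are in doubt. No paired analysis was possible because each group has 1 library. The count of members at least 2-fold apart was 2 for R/N and 2 for R/P. It was 1 in both comparisons when each gene was represented by the transcript with the highest mean (Ido2 remained, and Ido1 had no transcript at 1 FPKM), and 0 in both with a filter of 5 FPKM, which leaves only Wars. With RefSeq transcripts alone it was 3 in both, since Afmid was added at log2 ratios of 1.93 for R/N and 1.28 for R/P. The use of TPM, a pseudocount of 1 or 0.01, and scaling to the median ratio over 7132 genes kept it at 2. So did no filter (7 genes counted, Ido1 and Ido2 apart) and counting the joined transcripts. For P/N the count was 0 under every alternative run. Exchange of the labels N and P could not change these counts, because it only swaps R/N with R/P and reverses P/N. With N and P exchanged, the log2 ratio of Ido2 was 2.70 for R/N and 1.80 for R/P, and that of Afmid 0.23 for R/N and -0.58 for P/N. A pseudocount of 1 brought the log2 ratio of Ido1 to 1.15 for R/N and 1.21 for R/P, as its construction damps low genes. With the joined transcript counted, that of Afmid was 0.19 for R/N and -0.04 for P/N. Depth limited Tdo2, Kmo, Kynu and the levels of Ido1 in P and N, which rest on 6 or fewer fragments.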
